A study of Triticum aestivum with 4 samples.

Results

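Genes of photosynthesis and of the plastid, 8 in all, were followed in wheat seedling roots: PsbO, PsbP and petC of the thylakoid membrane, PRK, FBP and Trx-M of the stroma, rbcl, and CL9 of the plastid ribosome. They were taken by symbol or synonym from the 771 genes of the probe annotation and hold 38 of the array's 61290 probe sets, 28 of them paired with rbcl. A probe set is a group of short probes read out as 1 signal. The genes were picked with their signals on these arrays known, including their higher signal in Chinese Spring. The cultivar differences and PEG changes below are therefore descriptions, and no test is given.

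Each of the 4 arrays held total RNA from roots of 1 group, without replicates. The common wheat (Triticum aestivum) cultivars Luohan No. 2 and Chinese Spring were grown in Petri dishes to the 2-leaf stage and then kept in tap water, or for 6 h in polyethylene glycol (PEG) 6000 at -0.49 MPa. PEG, a large and poorly absorbed polymer, draws water away from roots and so imitates drought. The labels do not say how many seedlings made up a sample, so every ratio below compares 1 array with 1 array and carries no error between plants. The PEG and the cultivar comparisons use the same 4 arrays and are not independent of each other.

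Photosynthesis runs in 2 places inside the chloroplast. In the thylakoid membrane, photosystem II splits water and passes electrons through the cytochrome b6f complex, and in the surrounding stroma the Calvin cycle uses the products to fix carbon dioxide. Roots normally hold colourless plastids, in which nuclear genes for these proteins are kept at low activity, although roots that receive light can green.

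Signals are MAS5 values in arbitrary units, scaled on each array to a trimmed mean of 100.02. A signal of 10.6, the 40th percentile over all probe sets and arrays, was used as a floor, and a ratio with 1 array at the floor is given as at least N-fold. Of the 38 probe sets, 11 were at or below the floor on all 4 arrays, 27 passed it on at least 1 array and 7 on all 4. A signal above 100 was reached on some array by 5, which were 2 of rbcl and 1 each of PsbO, PsbP and petC. PRK, FBP, Trx-M and CL9 stayed below 100 throughout, so most of what follows concerns weak signals.

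**Figure D1:**
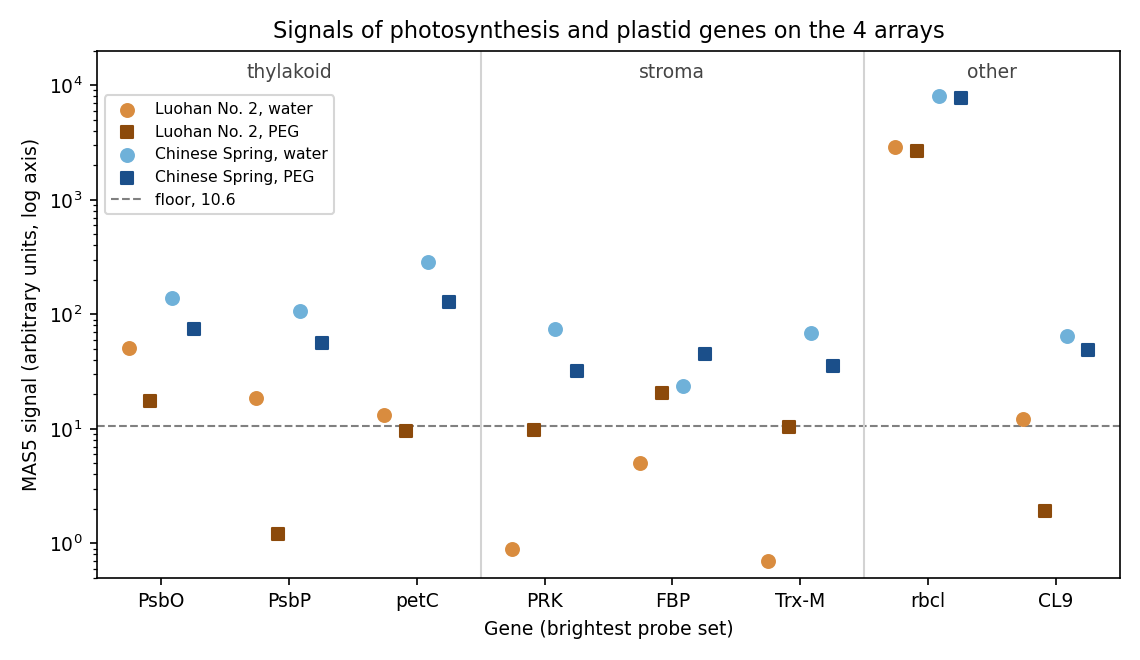
MAS5 signal on a log axis for the brightest probe set of each gene, with 1 point per array: circles for water, squares for PEG, orange and brown for Luohan No. 2, light and dark blue for Chinese Spring. The dashed line is the floor of 10.6. Both Chinese Spring points lie above both Luohan No. 2 points for all 8 genes, and rbcl lies far above the other 7.

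PsbO is the extrinsic protein that shields the manganese cluster where photosystem II splits water. The Luohan No. 2 arrays read 50.3 in water and 17.6 in PEG, and the Chinese Spring arrays 138.9 and 74.7. It was the only one of the 3 thylakoid genes above the floor on all arrays by its brightest probe set, and both Chinese Spring arrays were above both Luohan No. 2 arrays. The excess in Chinese Spring was 2.76-fold in water and 4.24-fold in PEG. PEG roots were below water roots in both cultivars, by a factor of 2.86 in Luohan No. 2 and of 1.86 in Chinese Spring. In bulk roots, fewer cells of a type and less RNA per cell cannot be told apart. PsbO has a single probe set here, and its name marks probes shared between transcripts of a gene.

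PsbP, the neighbouring extrinsic protein that helps hold calcium and chloride at the same site, had 2 probe sets. The brighter read 18.6 in water and 1.2 in PEG on the Luohan No. 2 arrays, with 107.9 and 55.7 for Chinese Spring. Chinese Spring was again above Luohan No. 2, by 5.80-fold in water and by at least 5.25-fold under PEG. PEG was the lower condition in both cultivars, by at least 1.75-fold in Luohan No. 2 and by 1.94-fold in Chinese Spring. The second probe set has a suffix for probes that may bind other transcripts. It read 15.6 and 16 on the Luohan No. 2 pair and 62.0 and 37.1 on the Chinese Spring pair, an excess of 3.97-fold and 2.32-fold for Chinese Spring. PEG roots were 1.67-fold lower than water roots here in Chinese Spring, while the Luohan No. 2 signals differed by 1.03-fold.

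The gene petC encodes the Rieske iron-sulphur protein, which carries electrons within the cytochrome b6f complex. The Luohan No. 2 arrays read 13.3 and 9.5, close to the floor, and the Chinese Spring arrays 288.7 and 129.3, water first. The gap between cultivars was 21.7-fold for water roots and at least 12.2-fold for PEG roots, and genes with Luohan No. 2 signals at the floor, which have bounds only, cannot be ranked against it. Of all measured probe sets, 0.0960% had a ratio at least this far towards Chinese Spring in water and 0.295% in PEG. In Chinese Spring the PEG array was 2.23-fold below the water array, and in Luohan No. 2 it was at least 1.25-fold below. A second petC probe set stayed under the floor on all arrays, with signals between 0.3 and 7.6, so the petC values rest on 1 probe set.

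Among the stromal genes, PRK encodes phosphoribulokinase, which regenerates the acceptor of carbon dioxide in the Calvin cycle. Water and PEG roots of Luohan No. 2 gave 0.9 and 9.8, both under the floor, and those of Chinese Spring 74.4 and 32.0. Trx-M, a thioredoxin m that passes reducing power from the light reactions to stromal enzymes, gave 0.7 and 10.3 in Luohan No. 2, also under the floor, and 68.7 and 35.1 for Chinese Spring. Both were thus seen above the floor on the Chinese Spring arrays alone. The excess there was at least 7.02-fold for PRK and 6.48-fold for Trx-M in water, and at least 3.02-fold and 3.31-fold under PEG. Their PEG changes could be measured only in Chinese Spring, where the PEG array was 2.33-fold lower for PRK and 1.96-fold lower for Trx-M.

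FBP encodes the plastid form of fructose-1,6-bisphosphatase, another Calvin cycle enzyme. Its brighter probe set read 5.0 in water and 20.7 in PEG on the Luohan No. 2 arrays, and 23.5 and 45.4 for Chinese Spring. With each gene taken by its brightest probe set, FBP was the only one of the 8 genes with higher signal in PEG than in water in both cultivars, by at least 1.95-fold for Luohan No. 2 and by 1.93-fold for Chinese Spring. The gap between cultivars was at least 2.22-fold in water and 2.19-fold under PEG. The second FBP probe set passed the floor only on the Luohan No. 2 water array, at 12.3, with 4.7 in PEG there and 2.7 and 2.8 on the Chinese Spring arrays. The 2 probe sets thus differed in the direction of the PEG change in Luohan No. 2.

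CL9, also listed as RPL9, is a protein of the large subunit of the plastid ribosome, which makes the proteins encoded in the plastid's own genome. Luohan No. 2 roots gave 12.3 in water and 1.9 in PEG, and Chinese Spring roots 64.3 and 48.8. The cultivar gap was 5.23-fold in water and no less than 4.60-fold under PEG, similar in size to that of PsbP. PEG roots were 1.32-fold below water roots in Chinese Spring and at least 1.16-fold below them in Luohan No. 2.

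The large subunit of Rubisco, the enzyme that fixes carbon dioxide, is the product that the name rbcl stands for, and in plants it is encoded in the plastid genome. RefSeq, on the assembly IWGSC CS RefSeq v2.1, places the entry paired with the name rbcl outside the mitochondrial genome, as it does the other 7 genes. Nuclear and plastid entries were not told apart here, so a plastid origin of these signals rests on the name. The brightest rbcl probe set read 2880.2 in water and 2678.3 in PEG on the Luohan No. 2 arrays, with 8007.0 and 7764.6 for Chinese Spring. The next read 2702.2 and 2837.7, then 7806.9 and 7464.6. Both have the suffix for probes that may bind other transcripts, and they gave nearly the same levels on every array. Chinese Spring was above Luohan No. 2 by 2.78-fold and 2.89-fold in water and by 2.90-fold and 2.63-fold under PEG. Their log2 PEG changes lay between -0.10 and 0.07 in Luohan No. 2 and were -0.04 and -0.06 in Chinese Spring. With probe sets of such suffixes left out, rbcl would be represented by a dim probe set whose log2 ratio of Chinese Spring to Luohan No. 2 was 0.45 in water and -2.43 in PEG, so the excess in PEG rests on the bright pair.

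The other 26 rbcl probe sets had signals from 0.2 to 79.8. Signal levels of different probe sets depend on their probes as well as on the transcript, so only ratios within a probe set are read here. Of the 26, 15 were above the floor in at least 1 cultivar in water, where their log2 ratios of Chinese Spring to Luohan No. 2 ran from -0.36 to 1.20 with a median of 0.43. Of the 15, 13 were above 0 and 10 are bounds, and 1 passed 2-fold towards Chinese Spring. In PEG 12 were measured, 7 of them as bounds, from -2.43 to 1.12, with 8 above 0, 1 past 2-fold towards Chinese Spring and 2 towards Luohan No. 2. Ratios with both arrays above the floor ran from -0.36 to 0.77 in water and from -2.43 to 1.12 in PEG. All of these were below the ratios of the bright pair in the same condition. Most of the bounds had Luohan No. 2 at the floor and may understate a gap. Such bounds cannot decide whether a gap like that of the bright pair was present. Most ratios over all measured probe sets of the array were above 0 as well, with medians of 0.22 in water and 0.20 in PEG. Of all measured, 15.2% passed 2-fold towards Chinese Spring in water and 16.3% in PEG. Towards Luohan No. 2, 6.16% and 6.80% did.

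Among these 26, 3 were above the floor on all 4 arrays, and each had its own profile. The probe set TaAffx.128414.196.S1_at, the brightest of them by mean signal, gave 58.5 and 60.3 with Luohan No. 2 and 79.8 and 11.2 with Chinese Spring, so a single array, Chinese Spring in PEG, was low. TaAffx.128414.181.S1_at gave 50.6 and 23.7, then 63.9 and 51.6, with Luohan No. 2 in PEG the low array, 2.14-fold under water. TaAffx.128414.229.A1_x_at gave 16.4 and 33.3, then 27.9 and 46.4, with PEG above water in both cultivars, by 2.03-fold and 1.66-fold. Below these, Ta.3807.1.A1_at gave 27.0 and 7.3, then 21.1 and 14.9, with PEG the lower condition in both cultivars. Of the 28 rbcl probe sets, 10 stayed under the floor on every array.

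**Figure D2:**
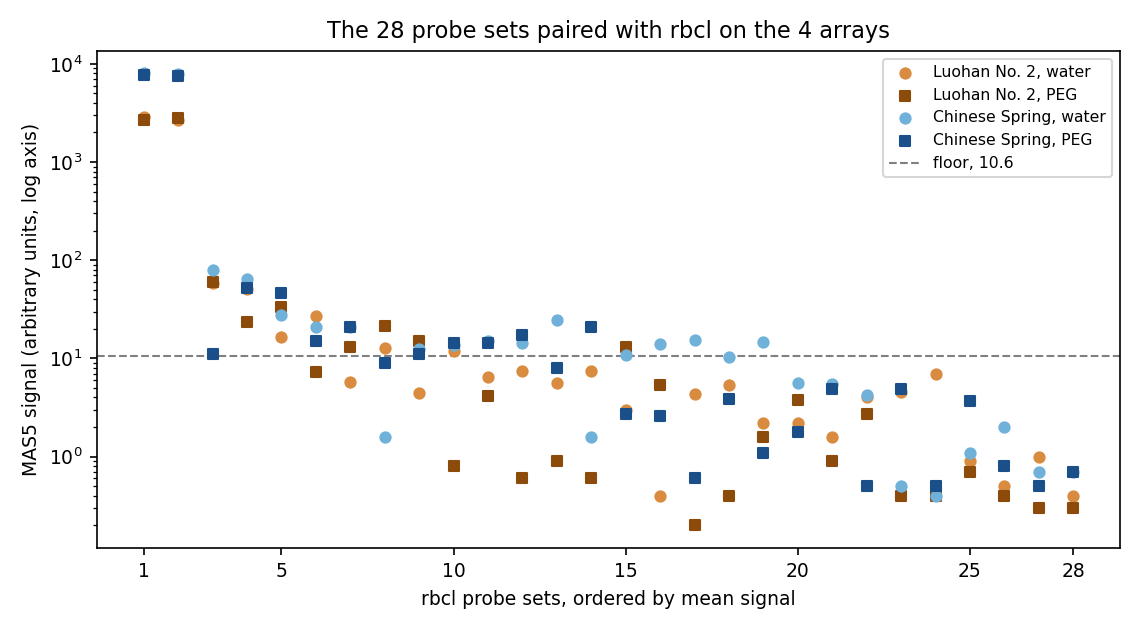
MAS5 signal on a log axis for the 28 probe sets paired with rbcl, ordered by mean signal, with 1 point per array and the floor of 10.6 as a dashed line. The leftmost 2 lie between 2678.3 and 8007.0, with the Chinese Spring points on top, and the other 26 do not exceed 79.8.

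In 20 of the 38 probe sets (52.6%), signals under the floor included, both Chinese Spring arrays were above both Luohan No. 2 arrays. Leaving out those that never passed the floor, this order was seen in 16 of 27 members (59.3%). The share among all probe sets, counted the same way, was 28.7% (14028 of 48877). In water 26 of the 38 were measured and 12 were below the floor in both cultivars. Of the 26, 11 passed 2-fold towards Chinese Spring and 0 towards Luohan No. 2, while 15 were within 2-fold. Over all 42716 measured probe sets, 15.2% passed 2-fold towards Chinese Spring and 6.16% towards Luohan No. 2. In PEG 22 of the 38 were measured and 16 were below the floor in both cultivars. Of the 22, 11 passed 2-fold towards Chinese Spring, where 16.3% of 43378 measured probe sets did, and 2 towards Luohan No. 2, where 6.80% did. The 11 in water were 8 of the 9 measured probe sets of the genes other than rbcl and 3 of the 17 measured of rbcl. The rbcl share is thus near the 15.2% over all measured probe sets. With 1 probe set per gene, all 8 genes passed 2-fold towards Chinese Spring in both conditions, a difference that was known when they were picked. With the mean log2 ratio over each gene's probe sets, 6 of the 8 did so, and rbcl (0.32 in water and 0.14 in PEG) and FBP (0.47 and 0.57) did not. In these means a probe set below the floor in both cultivars counted as 0, which draws the mean towards 0. In PEG this held for 14 of the 28 rbcl probe sets and for the second FBP probe set. The median log2 ratio of Chinese Spring to Luohan No. 2 over the 8 was 2.46 in water and 1.91 in PEG with floored arrays kept at the floor, beside 0.22 and 0.20 over all measured probe sets.

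The background itself leaned towards Chinese Spring, and median signals were higher on its arrays, at 20.3 and 20.2 beside 13.5 and 13.9. After quantile normalization, which gives the 4 arrays the same distribution, 8.54% of all measured probe sets passed 2-fold towards Chinese Spring and 8.82% towards Luohan No. 2 in water, and 10.4% and 10.1% in PEG. FBP then dropped out in both conditions, with log2 ratios of 0.85 and 0.76, and the other 7 genes still passed 2-fold towards Chinese Spring.

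The thylakoid genes did not stand apart from the rest in the cultivar gap. By brightest probe set, the log2 ratios of Chinese Spring to Luohan No. 2 in water ran from 1.47 to 4.44 for PsbO, PsbP and petC. For the other 5 they ran from 1.15 to 2.81, where the values of FBP, Trx-M and PRK, both ends included, are bounds and may be larger. In PEG they ran from 2.09 to 3.61 and from 1.13 to 2.20, ranges that overlap less but in which 5 of the 8 values, including those of PsbP and petC, are bounds. No spread between plants is at hand against which to set these ranges.

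PEG changes went in both directions among the members. The cultivar gap was known when the genes were picked, so the sizes of the PEG changes are not compared with it. In Chinese Spring 4 of the 25 measured probe sets were at least 2-fold lower in PEG and 0 higher, where 10.6% and 9.90% of all 46102 measured probe sets were. In Luohan No. 2 3 of the 18 measured were lower and 1 was higher, where 10.1% and 7.66% of 38468 were. The other 13 and 20 members were below the floor in both conditions. The 4 in Chinese Spring were petC, PRK and 2 dim rbcl probe sets, and the 3 in Luohan No. 2 were PsbO and 2 dim rbcl probe sets.

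With 1 probe set per gene, 7 of the 8 were below 1 in the PEG to water ratio in Chinese Spring, as were most of all measured probe sets. The median log2 change of the 8 in Chinese Spring was -0.92 beside -0.04 over all measured probe sets. The 3 thylakoid genes lay close together there, from -1.16 to -0.89, and PRK and Trx-M lay beside them at -1.22 and -0.97. FBP at 0.95, rbcl at -0.04 and CL9 at -0.40 stood away from these. After quantile normalization rbcl was on the other side of 0, at 0.19. In Luohan No. 2 the 6 measured genes had log2 changes from -1.51 for PsbO to at least 0.97 for FBP, and 4 of the 6 values are bounds. Among signals lower with PEG in Chinese Spring, the nearest to the 2-fold line were Trx-M outside it, at 1.96-fold, and petC inside it, at 2.23-fold. Among those higher with PEG in Luohan No. 2, they were FBP outside it, at no less than 1.95-fold, and an rbcl probe set inside it, at 2.03-fold. Towards Chinese Spring in water the nearest were FBP inside it, at no less than 2.22-fold, and a dim rbcl probe set outside it, at no less than 1.96-fold.

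**Figure D3:**
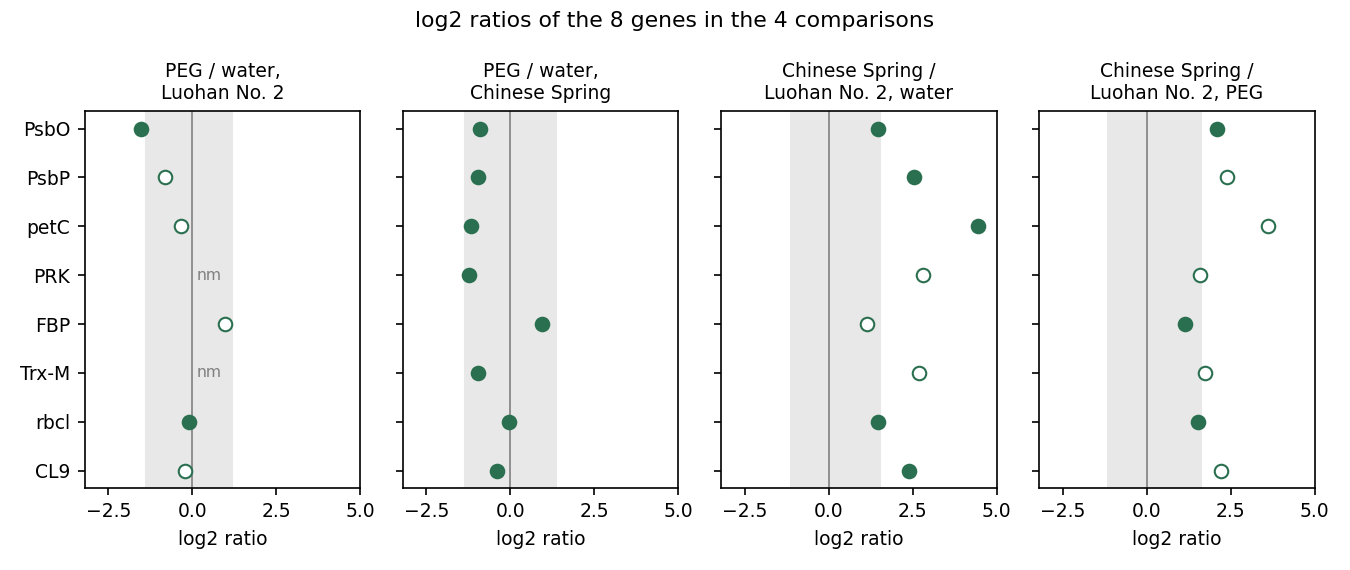
log2 ratios of the brightest probe set of each gene in the 4 comparisons. Filled points have both arrays above the floor, open points have 1 array at the floor and are bounds, "nm" marks genes below the floor on both arrays, and the grey band spans the 5th to 95th percentile of all measured probe sets. All points of both cultivar panels lie right of 0, while in the PEG panel of Chinese Spring 7 genes lie left of 0 and FBP lies right.

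Signals of the array's control transcripts differed between the arrays as well. The array carries 36 probe sets for 4 Bacillus subtilis transcripts (dap, lys, phe and thr) that the standard labelling protocol adds before labelling, although the labels do not say that they were added here. The 12 at the 5' ends were all higher in Chinese Spring, with a median of 4.26-fold in water (1.46-fold to 7.92-fold) and 4.84-fold in PEG (1.28-fold to 13.8-fold). The 12 in the middle had medians of 1.95-fold in water (0.726-fold to 2.49-fold) and 3.28-fold in PEG (1.77-fold to 5.59-fold). The 12 at the 3' ends had medians of 1.12-fold in water (0.809-fold to 1.51-fold) and 1.82-fold in PEG (1.22-fold to 2.41-fold). These transcripts do not come from the plant. In water the cultivar ratios of PsbO, PsbP, rbcl and CL9, from 2.76-fold to 5.80-fold, lie within the range of the 5' probe sets. They lie above the ranges of the middle and 3' probe sets, and the ratio of petC, 21.7-fold, lies above every range. In PEG the petC ratio is a bound, at least 12.2-fold, and cannot be placed above or below the highest 5' control ratio of 13.8-fold. The positions of the members' probes along their transcripts are not in the tables used here, and the part of this array difference in the cultivar gap was not tested.

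Between water and PEG the same controls had a median log2 change of 0.01 in Chinese Spring and -0.72 in Luohan No. 2, where 34 of the 36 were above the floor on an array. The Luohan No. 2 PEG array also had the lowest 5' to 3' ratio of the wheat sucrose synthase control, 0.0216 against 0.0554 to 0.0805 on the other 3. The lower PsbO, PsbP, petC and CL9 signals on that array stand beside these values, and their part was not tested. The 27 probe sets for transcripts added at hybridisation had median ratios of Chinese Spring to Luohan No. 2 of 1.38-fold in water and 0.926 in PEG.

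**Figure D4:**
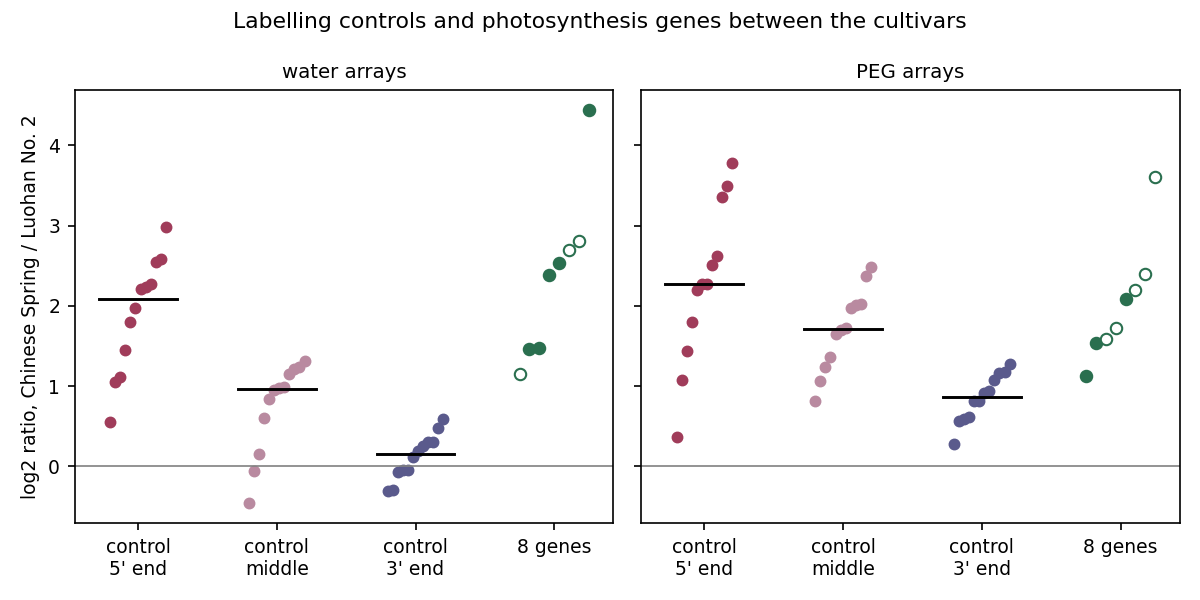
log2 ratio of Chinese Spring to Luohan No. 2 on the water arrays (left) and the PEG arrays (right) for the 12 labelling control probe sets at each of the 5' end, the middle and the 3' end, with bars at the medians, and for the 8 genes by brightest probe set, open where 1 array is at the floor. The 5' controls lie above 0 throughout and overlap the genes on both pairs of arrays. On the water arrays the 3' controls lie below all 8 genes.

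Unnamed probe sets that share a sequence cluster number with the rbcl probe sets had no part in choosing the genes. There were 53 of them, none paired with a gene, and 19 were above the floor on all 4 arrays. Of the 19, 16 were higher in Chinese Spring in both conditions, beside 34.4% of the 26615 probe sets above the floor on all arrays, and 4 were at least 2-fold higher in both, beside 3.04%. With PEG, 12 of the 19 were lower in Luohan No. 2 and higher in Chinese Spring, beside 19.9% of all, a pattern shown by 0 of the 7 named probe sets above the floor on all arrays. The probe set TaAffx.128896.1.S1_s_at read 371.0 and 206.9 for the Luohan No. 2 pair and 419.0 and 842.6 for the Chinese Spring pair. TaAffx.128414.219.S1_x_at read 140.5 and 60.5, and 260.8 and 410.0. Such probe sets can overlap in sequence and share the arrays, and a shared cluster number does not make them 1 transcript: the cluster of the second petC probe set held 112 others, 5 of them paired with other genes.

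Outside the 8 genes, 94 genes with a name other than a locus number, members included, could be compared for the shape of their signals over the 4 arrays. The measure was the Euclidean distance between log2 profiles, each centred on its own mean, from the median profile of PsbO, PsbP and petC, whose own distances were 0.85, 0.0071 and 1.60. CL9, Trx-M and PRK were at 0.61, 0.63 and 0.66, rbcl was at 1.26, and FBP, at 2.27, was farther away than the outside genes named next. The closest genes outside the group were THI1.2, a thionin, at 1.30, the gene listed as CIII and WMAI-1 at 1.31, ATI at 1.56, SER1 at 1.69 and TEF1 at 1.74. THI1.2 read 48.6 and 68.3 for the Luohan No. 2 pair and 227.8 and 127.9 for the Chinese Spring pair, while CIII, ATI and SER1 were below the floor on both Luohan No. 2 arrays. With 4 arrays, profiles of this kind have few ways to differ.

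A wider list of photosynthesis and plastid gene names matched 3 further genes by letters alone, RPS29, Prx1 and one listed as both atpA and IVR1, with 7 probe sets between them, and the tables do not say that any of them acts in the plastid. Their brightest probe set, of RPS29, read 181.8 and 214.3 for the Luohan No. 2 pair and 148.8 and 132.1 for the Chinese Spring pair, and the other RPS29 probe set 12.9 and 97.8, then 112.1 and 129.2, a log2 ratio of Chinese Spring to Luohan No. 2 of 3.12 in water. The 4 of Prx1 did not exceed 29.0. Of 41 names set down as markers of green shoot, the annotation held PsbO and PsbP alone, so green tissue in the root samples was not tested. Of 15 root names it held DMAS1, an enzyme of iron chelator synthesis, at signals between 116.5 and 419.3 over 3 probe sets, and the root malate transporter TaALMT1 at 10.6 to 66.8. The summed root signals lay between 600.4 and 733.5 on the 4 arrays and were mostly DMAS1. TaALMT1 read 22.9 and 10.6 for the Luohan No. 2 pair and 27.6 and 66.8 for the Chinese Spring pair. In PEG it was thus at least 6.30-fold higher in Chinese Spring. The summed signals of PsbO and PsbP, picked with their cultivar gap known, lay between 34.8 and 308.8, and the sums are not compared.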

How the data were processed

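The authors deposited 1 linear intensity for each probe set on each array. The submitters' processing notes name MAS5, without a version. The 2% trimmed mean was 100.02 on each array, so the authors had scaled each to about 100. Detection calls were not used here. Mismatch subtraction in MAS5 makes weak signals noisy, and scaling by 1 factor left median signals of 13.5 and 13.9 for Luohan No. 2 but 20.3 and 20.2 for Chinese Spring.

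After setting aside 111 controls, 61179 probe sets remained. Signals were floored at 10.6 and log2 was taken (Python 3.11.15, pandas 2.3.3, numpy 2.4.6). A probe set above the floor on at least 1 of the 2 arrays compared was measured, and 2-fold differences were counted without a test, since each group has 1 array, whose number limits precision. Names came from the platform annotation (1273 probe sets with 1 gene, 59906 with none, 0 with several) and from RefSeq, which held 770 of 771 genes. Homoeologous copies can share probes, and sequence differences between cultivars can alter hybridisation.

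Every probe set of the 8 genes is described. A gene is represented by its brightest probe set over the 4 arrays, of the further pathway genes up to 8 and of alike genes 5 were to be named. The genes and lists were chosen with earlier results of these data known. The counting was tested on simulated data, with changes larger than 2-fold planted in probe sets of mean signal above 100. Calls on weak signals near the floor, where most members lie, were not tested in this way. Other floors, a pseudocount, 2 other scalings, a probe set filter and averaging over probe sets were tried.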

Additional observations from a re-analysis of the deposited data

Results flagged for a closer look

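Of the 7 member probe sets above the floor on all 4 arrays, 3 had PEG changes of opposite sign in the cultivars, and none of these differences was tested. The rbcl probe set TaAffx.128414.196.S1_at read 58.5 in water and 60.3 in PEG for the Luohan No. 2 pair and 79.8 and 11.2 for the Chinese Spring pair, log2 changes of 0.044 and -2.83. Its log2 ratio of Chinese Spring to Luohan No. 2 was 0.45 in water and -2.43 in PEG, also of opposite sign, and these values rest on the single Chinese Spring PEG signal near the floor. The second PsbP probe set, TaAffx.120874.1.S1_x_at, had a log2 change of 0.037 with PEG for Luohan No. 2 and of -0.74 for Chinese Spring. The second rbcl probe set, TaAffx.128414.1.A1_x_at, had 0.071 and -0.065, each smaller than the spread of 0.57 and 0.51 (SD, log2) between probe sets of 1 sequence cluster in the same comparisons.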

How the results depend on the processing

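The counts depended most on the floor. With the floor at the 20th percentile (2.8), 19 member probe sets in water and 17 in PEG passed 2-fold towards Chinese Spring and 4 towards Luohan No. 2 in water. In Luohan No. 2 11 were then lower and 8 higher in PEG (genes: 3 and 3), and in Chinese Spring 10 and 3. At the 60th percentile (27.9), 4 probe sets and 3 genes were higher in Chinese Spring in PEG, 1 probe set in Luohan No. 2, and 0 probe sets and 0 genes passed 2-fold lower, or 0 probe sets higher, with PEG in Luohan No. 2. At a floor of 100 the numbers higher in Chinese Spring were 3 probe sets and 2 genes in water and 2 and 1 in PEG, with 0 higher in Luohan No. 2 in PEG, and with PEG 1 probe set and 1 gene were lower in Chinese Spring and 0 either way in Luohan No. 2. With log2(signal + 16), 5 genes were higher in Chinese Spring in PEG and 1 probe set in Luohan No. 2; with PEG, 2 probe sets and 1 gene were lower and 1 higher in Chinese Spring, and 1 was lower and 0 higher in Luohan No. 2. Quantile normalization gave 1 gene and 1 probe set higher with PEG in Chinese Spring, and 1 gene higher and 2 lower in Luohan No. 2. Scaling to probe sets above 100 gave 1 higher with PEG in Chinese Spring, 0 in Luohan No. 2 and 1 higher in Luohan No. 2 than in Chinese Spring in PEG. Without probe sets whose suffix marks shared probes, 7 probe sets were higher in Chinese Spring in each condition. This filter removed the only probe set of PsbO, the 1 gene lower with PEG in Luohan No. 2 in the main setting. With PsbO not counted, 0 genes were lower and 0 probe sets higher with PEG in Luohan No. 2. The gene rbcl, then represented by a dim probe set, reversed in PEG to a log2 ratio of -2.43, the 1 gene higher in Luohan No. 2. Averaging over probe sets, with 0 for those below the floor on both arrays, left 1 gene lower with PEG in Chinese Spring. It left 6 genes higher in Chinese Spring than in Luohan No. 2 in each condition. At the 20th percentile floor PRK (4.73) and Trx-M (4.62) passed petC (4.44) in log2 ratio in water. Raised floors leave fewer probe sets measured; the cause of the other moves was not tested. The remaining 75 of 120 counts stayed within 1.5 times, many of them counts of 0 that stayed at 0. No paired analysis was possible because each group has 1 array, and no replicate could be left out.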
